A study of Mus musculus with 12 samples.

Results

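The genes described here are 10 cytokines and chemokines that CD8 T cells make: Ccl3, Ccl4, Ccl5, Xcl1, Ifng, Tnf, Lta, Ltb, Csf1 and Tnfsf14. They were taken by symbol from a table of read counts with 48397 gene symbols, and all 10 were among the 21457 genes that passed a filter on low counts and were tested. The counts come from RNA sequencing of 12 libraries of sorted mouse CD8 T cells, 4 from each of 3 populations. Every mouse was Kaede-Tg, a transgenic that makes a protein which light turns from green to red, and every mouse carried YUMMER1.7, a mouse melanoma line grown as an implanted tumor. Tumors were illuminated on day 11, and cells were sorted on day 12. Egressed cells were Kaede red+ CD44+ CD8+ T cells sorted from the tumor-draining lymph node, so they had been in the tumor when it was illuminated. Tumor-retained cells were Kaede red+ CD44+ CD8+ T cells sorted from the tumor itself. Spleen cells were CD44+ CD8+ T cells that were not selected for red Kaede, so the label does not tell which of them had been in the tumor. CD44 marks T cells that have met antigen, and no sort was made for cells that recognise the tumor. The sources used here do not give mouse age, sex or strain background, nor whether libraries with the same number came from the same mouse.

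An activated CD8 T cell acts on its surroundings through ligands as well as by killing. The chemokines CCL3, CCL4 and CCL5 draw monocytes and T cells, and XCL1 binds XCR1, which marks the dendritic cells that cross-present antigen to CD8 T cells. Interferon gamma (Ifng) raises antigen presentation on neighbouring cells, and TNF, lymphotoxin alpha (Lta), lymphotoxin beta (Ltb) and LIGHT (Tnfsf14) belong to the TNF superfamily. CSF1 keeps macrophages alive through CSF1R. The Ifng and Tnf genes are known to be copied into RNA within a short time of T cell receptor signalling, through factors of the NFAT and AP-1 families, whereas resting memory CD8 T cells are known to store Ccl5 message.

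Total counts per library ran over 22.7 to 29.2 M (M, mega) in egressed cells, 25.6 to 36.3 M in tumor-retained cells and 27.3 to 33.4 M in spleen cells. Levels are CPM, counts scaled to the library total, after TMM scaling, a correction for differences in RNA composition, and 3 counts, taken as the floor of detection, equal 0.0889 to 0.125 CPM. Between 14927 and 25916 symbols were detected in egressed, 15296 and 21306 in tumor-retained, and 30658 and 32165 in spleen libraries. The 10 CD8 T cell genes checked (among them Cd8a, Cd3e and Trac) summed to 7539 to 7975 CPM in egressed, 4865 to 8908 CPM in tumor-retained and 7846 to 8934 CPM in spleen libraries, and none of them was at 0 in any group. Tumor-retained libraries 3 and 4 stood apart: 14 macrophage and monocyte markers summed to 2325 and 3648 CPM there, against 7.52 to 112 CPM in all other libraries, and 9 stromal and endothelial markers summed to 4268 and 2126 CPM, against 67.8 to 162 CPM elsewhere. For genes whose level or call turned on these libraries, values without both are given beside the result.

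Compared with spleen cells, tumor-retained cells held more Ccl3, Ccl4 and Ifng message and less Ltb message, and egressed cells held more Ccl3. Between egressed and tumor-retained cells no gene of the 10 passed, although Ccl4 was lower in every egressed library than in any tumor-retained library. The test was edgeR's quasi-likelihood test on all 21457 genes with Benjamini-Hochberg adjustment, and a gene passed at an adjusted p below 0.05. In egressed against tumor-retained cells 0 of 10 genes passed, where 1.1% of all tested genes did (0.508% higher and 0.587% lower). An unadjusted p below 0.05 was reached by 4 of the 10 (Ccl3, Ccl4, Ltb and Csf1), where 17.4% of all genes reached it, and DESeq2 called 1 of the 10 (Ccl4) and limma-voom called 0. In egressed against spleen cells 1 of 10 rose, where 0.368% of genes passed (0.196% higher and 0.172% lower). In tumor-retained against spleen cells 3 rose and 1 fell, where 2.41% of genes passed (1.02% higher and 1.39% lower). The comparisons against spleen use the same 4 spleen libraries and are therefore not independent of each other.

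The groups of 4 libraries did not overlap for 1 of the 10 genes in egressed against tumor-retained cells, where 6.35% of all tested genes did not overlap (3.14% higher and 3.21% lower). They did not overlap for 5 genes in egressed against spleen cells (4 higher, 1 lower), where 14.1% of genes did not, and for 5 genes in tumor-retained against spleen cells (4 higher, 1 lower), where 20.3% did not. Among all genes most of these were lower than spleen (11.1% lower and 2.94% higher in egressed cells, 15.9% lower and 4.43% higher in tumor-retained cells), whereas 4 of the 5 among the cytokine genes were higher. The median log2 fold change of the 10 was -0.04 in egressed against tumor-retained cells (0.00 over all genes), 1.37 in egressed against spleen cells (-0.13 over all genes) and 0.93 in tumor-retained against spleen cells (-0.15 over all genes). In bulk libraries such as these, fewer cells making a transcript and less of it per cell cannot be told apart.

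**Figure D1:**
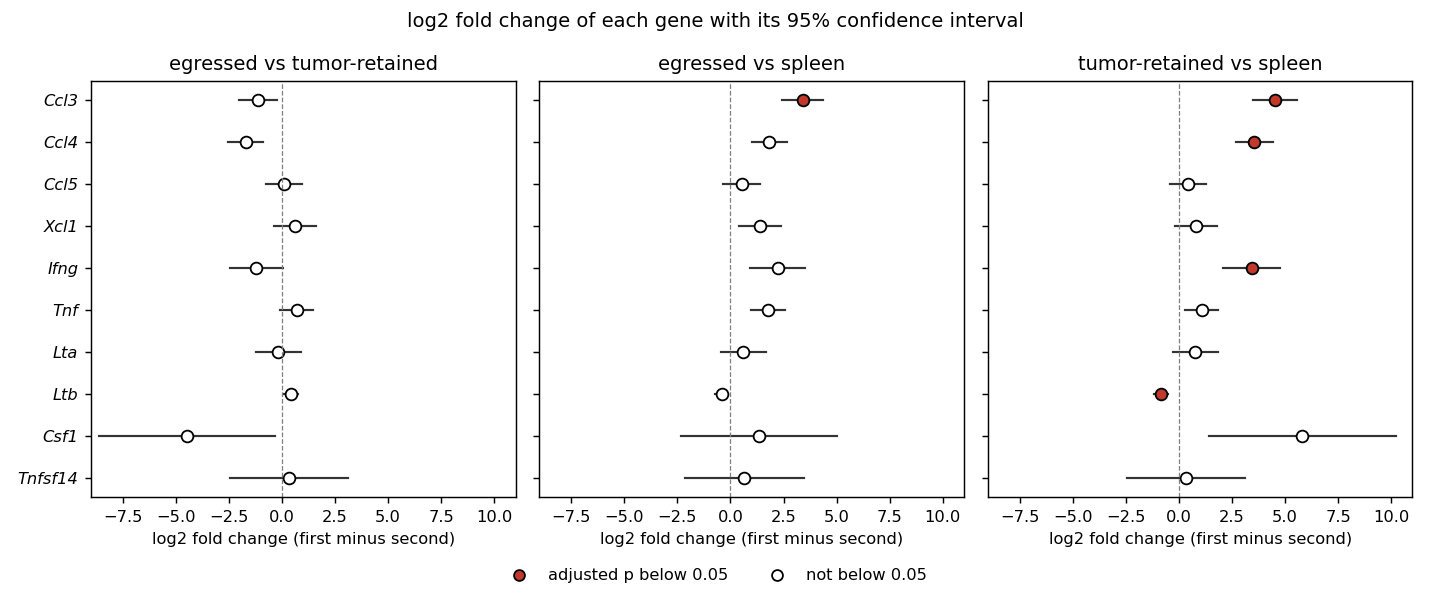
log2 fold change of each of the 10 genes (x axis, first group minus second) with its 95% confidence interval, in the 3 comparisons, with genes past an adjusted p of 0.05 filled in red. Ccl3 is filled in both comparisons against spleen, Ccl4, Ifng and Ltb only in tumor-retained against spleen cells, and no gene is filled in egressed against tumor-retained cells, where the interval of Csf1 is the widest.

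In mm10 (GENCODE M21) several of the genes lie beside each other. Ccl3 (chr11:83647844-83649355, minus strand) and Ccl4 (chr11:83662584-83664683, plus strand) are 13.2 kb apart with no protein-coding gene between them, and Ccl5 (chr11:83525778-83530518, minus strand) is 132 kb from Ccl4, with 4 protein-coding genes between. Ltb (chr17:35194439-35196320, plus strand), Tnf (chr17:35199381-35202007, minus strand) and Lta (chr17:35203165-35205351, minus strand) follow each other within the major histocompatibility complex, 3.06 kb and 1.16 kb apart. Tnfsf14 (chr17:57189492-57194177, minus strand) is 22.0 Mb from Lta. Ifng (chr10:118441046-118445892, plus strand), Xcl1 (chr1:164931644-164935527, minus strand) and Csf1 (chr3:107741048-107760469, minus strand) lie elsewhere. Ccl3 and Ccl4 both lay above all spleen libraries in every egressed and tumor-retained library, whereas Tnf lay above them and its neighbour Ltb under them. Xcl1 overlaps Gm20743 on the opposite strand, which had at most 8.47 CPM in a library, and strand is not stated to have been kept, so reads of the overlap cannot be told apart. Ltb overlaps Mir6973a (at most 3.23 CPM) and Lta overlaps Mir6974 (0 counts). Ifng overlaps Gm49751 on its own strand, whose level was not analysed here, so reads of that overlap cannot be told apart either.

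The promoters of Ccl3, Ifng and Tnf are shown for a chemokine, for interferon gamma and for a TNF family gene whose levels lay above spleen in every tumor-retained library. Each is the 250 bases upstream of the RefSeq start in GRCm38.p6, read 5′ to 3′ on the gene's strand, and capitals mark GGAAA or its reverse complement TTTCC, the core letters of NFAT sites.
Ccl3 (chr11:83649379-83649628, minus strand): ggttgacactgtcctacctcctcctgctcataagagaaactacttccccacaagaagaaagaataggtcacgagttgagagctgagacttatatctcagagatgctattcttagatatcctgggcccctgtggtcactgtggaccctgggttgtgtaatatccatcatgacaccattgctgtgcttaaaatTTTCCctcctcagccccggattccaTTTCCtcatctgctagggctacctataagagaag
Ifng (chr10:118440796-118441045, plus strand): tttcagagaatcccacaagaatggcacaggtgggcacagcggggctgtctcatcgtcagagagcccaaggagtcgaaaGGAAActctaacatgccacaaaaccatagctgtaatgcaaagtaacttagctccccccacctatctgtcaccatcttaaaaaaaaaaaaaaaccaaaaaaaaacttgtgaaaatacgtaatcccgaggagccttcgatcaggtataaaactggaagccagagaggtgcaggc
Tnf (chr17:35202008-35202257, minus strand): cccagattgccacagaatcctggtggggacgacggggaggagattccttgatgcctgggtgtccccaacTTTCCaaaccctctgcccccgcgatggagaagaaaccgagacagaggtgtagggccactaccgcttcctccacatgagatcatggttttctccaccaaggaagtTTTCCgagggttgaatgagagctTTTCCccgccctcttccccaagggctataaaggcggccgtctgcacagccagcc
The core stands 2 times in the Ccl3 window, 1 time in the Ifng window and 3 times in the Tnf window. Over 32851 RefSeq promoter windows of the same length, 55.6% hold at least 1 core on either strand, 21.4% at least 2 and 6.39% at least 3, so the letters are common. The TATA box letters TATAAA begin 30 bases before the Ifng start and 29 bases before the Tnf start, and 12.4% of all windows hold TATAAA on either strand. Of the 8 genes with an entry in the RefSeq promoter table (all but Ccl4 and Ccl5), Tnfsf14 alone holds the AP-1 letters TGANTCA (6.75% of all windows), and none holds the kappaB letters GGGNNTTCC (4.98%) or the full CRE TGACGTCA (1.55%). These are matches of letters, not measured binding.

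Per kilobase of exon, Ccl5 had the highest mean level of the 10 in all 3 populations, at 691 CPM per kb in egressed, 645 CPM per kb in tumor-retained and 482 CPM per kb in spleen cells. In egressed cells Ltb (359 CPM per kb) and Ccl4 (123 CPM per kb) came next, followed by Xcl1, Ifng, Ccl3, Tnf, Lta, Tnfsf14 and Csf1 (0.615 CPM per kb). Neighbours in that order differed beyond their spread at 3 places, Ccl5 above Ltb, Ltb above Ccl4 and Ccl3 above Tnf. In tumor-retained cells Ccl4 (404 CPM per kb) stood above Ltb (268 CPM per kb), then Ifng (143 CPM per kb), Ccl3, Xcl1, Lta, Tnf, Csf1 and Tnfsf14, and every pair of neighbours overlapped. In spleen cells Ccl5 and Ltb (481 CPM per kb) overlapped and all others were far lower, from Xcl1 (37.6 CPM per kb) and Ccl4 down to Ccl3 (5.58 CPM per kb) and Csf1 (0.244 CPM per kb).

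**Figure D2:**
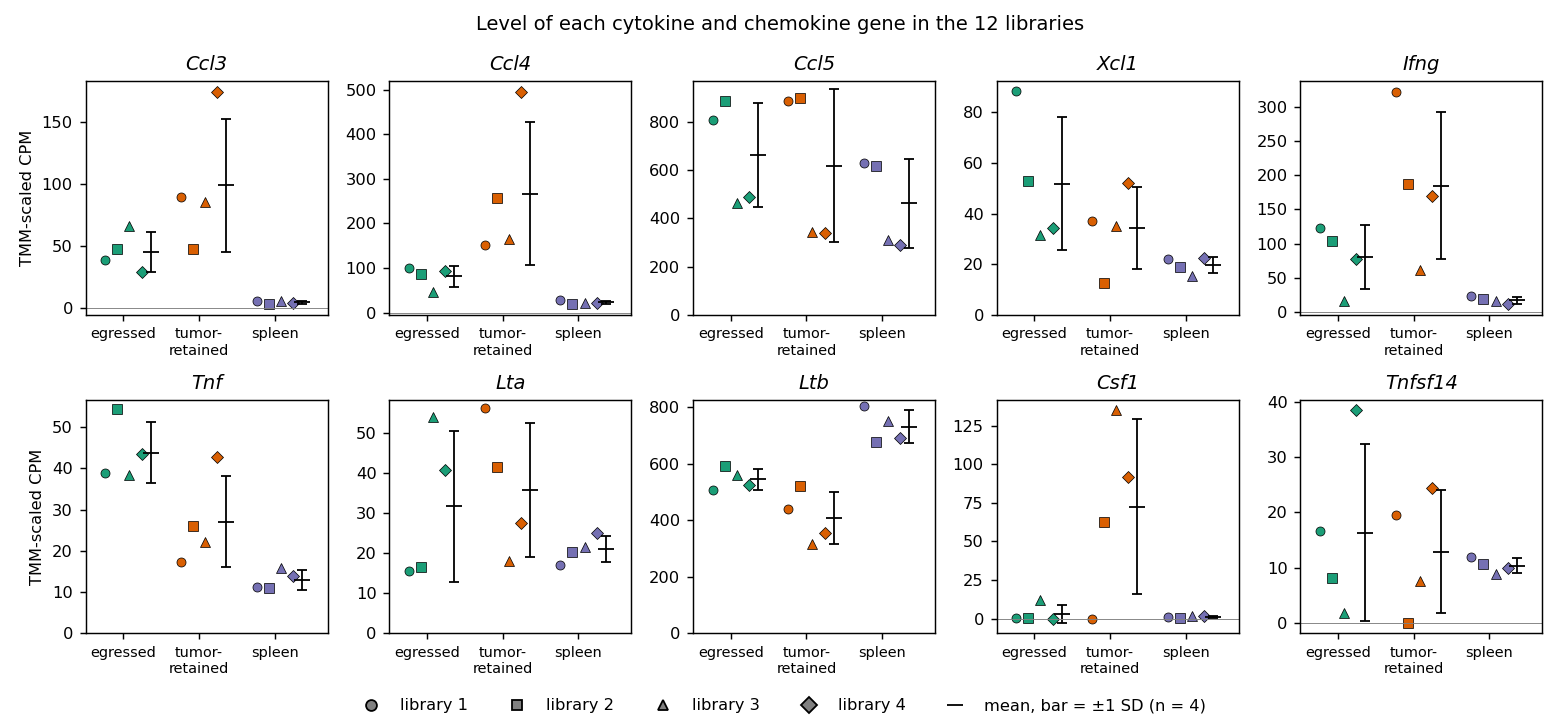
TMM-scaled CPM (y axis, from 0, 1 scale per gene) of the 10 genes in the egressed, tumor-retained and spleen libraries, with 1 symbol per library number and the mean with ±1 SD (n = 4) beside each group. Ccl3 and Ccl4 are lowest in all spleen libraries, Ltb is highest there, Ccl5 is higher in libraries 1 and 2 than in 3 and 4 of every group, and Csf1 is high in tumor-retained libraries 2, 3 and 4.

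Ccl3, which recruits monocytes and T cells, was measured at 38.4, 47.7, 65.9 and 28.5 CPM in egressed libraries 1 to 4, at 89.4, 47.3, 85.6 and 175 CPM in tumor-retained libraries and at 5.46, 2.76, 5.18 and 3.71 CPM in spleen libraries. Every egressed and every tumor-retained library lay above every spleen library, while egressed and tumor-retained libraries overlapped. The log2 fold change was 3.40 ± 0.45 (SE, adjusted p = 0.0114 by edgeR) in egressed over spleen cells, a 10.5-fold difference, and 4.54 ± 0.47 (adjusted p = 0.000253) in tumor-retained over spleen cells, a 23.2-fold difference. Egressed cells averaged 45.1 ± 15.9 CPM and tumor-retained cells 99.3 ± 53.8 CPM (SD, n = 4 each), and that difference did not pass (log2 fold change -1.14, 95% interval -2.03 to -0.24, adjusted p = 0.175). The tumor-retained call held under all 21 alternative analyses and was 3.98 without tumor-retained libraries 3 and 4 (adjusted p = 0.00183). The egressed call was lost with limma-voom (adjusted p = 0.206) and when spleen library 1, 2, 3 or 4 was left out (adjusted p = 0.0649, 0.0646, 0.0689 and 0.0593). Tumor-retained library 1 had 89.4 CPM of Ccl3 with a macrophage marker sum of 32.8 CPM, within the range of the spleen libraries (29.8 to 98.9 CPM). Library 2, with a sum of 40.5 CPM, had the least Ccl3 of its group (47.3 CPM). Library 3, with a sum of 2325 CPM, had 85.6 CPM, and library 4, with the highest sum (3648 CPM), had the most (175 CPM). The part of other cell types in the Ccl3 level was not tested.

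Ccl4, which like CCL3 draws monocytes and T cells, had 100.1, 86.1, 46.0 and 92.4 CPM in egressed libraries, 150.4, 257, 164 and 495 CPM in tumor-retained libraries and 28.8, 20.3, 20.6 and 21.6 CPM in spleen libraries. The 3 groups did not overlap at all: egressed libraries lay between the others, under all tumor-retained and over all spleen libraries. In tumor-retained over spleen cells Ccl4 rose by a log2 fold change of 3.55 ± 0.40 (SE), or 11.7-fold (adjusted p = 0.000506 by edgeR), under all 21 alternatives and also without tumor-retained libraries 3 and 4 (3.13, adjusted p = 0.00101). In egressed over spleen cells the log2 fold change was 1.83 (95% interval 1.01 to 2.65, adjusted p = 0.0687), and in egressed against tumor-retained cells it was -1.72 (95% interval -2.53 to -0.90, adjusted p = 0.0518). Both values lay near the threshold and crossed it under other settings. In egressed against tumor-retained cells Ccl4 passed under 6 of 21 alternatives. It passed with DESeq2 (adjusted p = 0.000408), median-of-ratios scaling (0.0474) and no filter on low counts (0.0472). Scaling on the 10 CD8 T cell genes (0.0493) and leaving out tumor-retained library 1 (0.0197) or library 3 (0.0422) made up the rest. The other 15 did not call it. Among them were leaving out tumor-retained libraries 3 and 4 together (log2 fold change -1.31, adjusted p = 0.113) or library 4 alone (-1.23, 0.121). Limma-voom (0.123) and the replicate block (0.0991) did not call it either. Against spleen, egressed cells passed with DESeq2 (adjusted p = 5.64e-05) and with median-of-ratios (0.0454) or library size scaling (0.0463). They also passed without tumor-retained library 1 (0.0369), library 4 (0.0335) or libraries 3 and 4 together. The other 15 of 21 alternatives did not call it (adjusted p up to 0.409).

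Ccl5, the chemokine known to be stored as message in memory CD8 T cells, was abundant everywhere. Egressed libraries 1 to 4 had 811, 886, 466 and 490.4 CPM, tumor-retained libraries had 888, 901, 345 and 342 CPM, and spleen libraries had 628, 619, 312 and 290.4 CPM. In each group libraries 1 and 2 stood well above libraries 3 and 4, and between groups the ranges overlapped. No comparison passed: the log2 fold change was 0.10 (95% interval -0.76 to 0.96, adjusted p = 0.954 by edgeR) in egressed against tumor-retained, 0.52 (adjusted p = 1) in egressed against spleen and 0.42 (adjusted p = 0.776) in tumor-retained against spleen cells. The split by library number, seen after the values were known, was shared by Ifng, and 183 of the 21457 tested genes (0.853%) had libraries 1 and 2 above 3 and 4 in all 3 groups, against 92 (0.429%) with the reverse. What separates libraries 1 and 2 from 3 and 4 is not stated in the labels, and it was not tested.

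Xcl1, the ligand of XCR1, had 88.6, 53.1, 31.7 and 34.1 CPM in egressed, 37.0, 12.7, 35.1 and 52.3 CPM in tumor-retained and 22.0, 18.9, 15.4 and 22.4 CPM in spleen libraries. All egressed libraries lay above all spleen libraries, while the tumor-retained group overlapped both. Unlike Ccl3 and Ccl4, its mean was highest in egressed cells (51.9 ± 26.3 CPM, against 34.3 ± 16.3 CPM in tumor-retained and 19.7 ± 3.25 CPM in spleen cells; SD, n = 4 each). None of the differences passed: the log2 fold change was 0.60 (95% interval -0.39 to 1.59, adjusted p = 0.605 by edgeR) in egressed against tumor-retained and 1.40 (0.40 to 2.40, adjusted p = 0.291) in egressed against spleen cells, where DESeq2 alone called it (adjusted p = 0.0243).

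Ifng had 122, 104, 15.5 and 77.4 CPM in egressed libraries, 322, 187, 60.7 and 169.7 CPM in tumor-retained libraries and 23.0, 18.5, 15.9 and 11.2 CPM in spleen libraries. All tumor-retained libraries were above all spleen libraries, whereas egressed library 3 lay inside the spleen range and the other 3 egressed libraries above it. Ifng rose in tumor-retained over spleen cells by a log2 fold change of 3.43 ± 0.62 (SE), or 10.8-fold (adjusted p = 0.0109 by edgeR), and by 3.87 without tumor-retained libraries 3 and 4 (adjusted p = 0.00923). That call was lost with limma-voom (adjusted p = 0.135) and without spleen library 2, 3 or 4 (adjusted p = 0.0502, 0.0565 and 0.0527). In egressed over spleen cells the log2 fold change was 2.22 (95% interval 0.94 to 3.50, adjusted p = 0.162), and it passed with DESeq2 (0.00252) and when the 3 libraries with the fewest detected genes, egressed 3 and 4 and tumor-retained 1, were left out (0.0319). Egressed cells averaged 79.9 ± 46.8 CPM and tumor-retained cells 185 ± 107 CPM (SD, n = 4 each), which did not differ past the threshold (log2 fold change -1.21, 95% interval -2.45 to 0.03, adjusted p = 0.303).

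Tnf, whose product acts on TNFR1 and TNFR2, had 38.9, 54.5, 38.5 and 43.4 CPM in egressed, 17.3, 26.1, 22.2 and 42.8 CPM in tumor-retained and 11.2, 10.9, 15.9 and 13.8 CPM in spleen libraries. Every library of either Kaede red+ group was above every spleen library, and egressed libraries were higher than tumor-retained ones except tumor-retained library 4. The log2 fold change was 1.76 (95% interval 0.96 to 2.57, adjusted p = 0.0754 by edgeR) in egressed against spleen, 1.07 (0.28 to 1.86, adjusted p = 0.146) in tumor-retained against spleen and 0.69 (-0.09 to 1.48, adjusted p = 0.368) in egressed against tumor-retained cells. Against spleen, egressed cells passed with DESeq2 (adjusted p = 6.18e-07), with median-of-ratios scaling (0.049) and without tumor-retained library 1 (0.0418). In tumor-retained against spleen cells it passed with DESeq2 (0.00274) and without the 3 libraries with the fewest detected genes (0.0389).

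The balance between Ifng and Tnf differed between libraries as well. There were 3.15, 1.91, 0.402 and 1.78 Ifng counts per Tnf count in egressed libraries 1 to 4, 18.6, 7.16, 2.73 and 3.96 in tumor-retained libraries and 2.06, 1.70, 1 and 0.815 in spleen libraries. Tumor-retained libraries were above all spleen libraries, whereas egressed libraries spanned the spleen range, and only egressed library 1 reached into the tumor-retained range. The balance of Ccl5 to Ccl4 ran the other way, at 8.10, 10.3, 10.1 and 5.31 Ccl5 counts per Ccl4 count in egressed, 5.91, 3.50, 2.11 and 0.690 in tumor-retained and 21.8, 30.5, 15.1 and 13.4 in spleen libraries. Each egressed and tumor-retained library was under every spleen library in this ratio. Such ratios within a library do not depend on how libraries are scaled, and they show unequal change, not which gene moved.

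Lymphotoxin beta (Ltb), which anchors lymphotoxin alpha at the cell surface and signals through LTBR in lymphoid tissue, ran against the chemokines. It had 506, 591, 559 and 523 CPM in egressed libraries, 438, 519.8, 316 and 354 CPM in tumor-retained libraries and 802, 676, 750.1 and 689.8 CPM in spleen libraries. All 8 Kaede red+ libraries lay under all spleen libraries, and tumor-retained library 2 was the 1 of its group to reach the egressed range. Ltb fell in tumor-retained against spleen cells (log2 fold change -0.84 ± 0.15 SE, adjusted p = 0.0109 by edgeR) and was -0.63 without tumor-retained libraries 3 and 4 (adjusted p = 0.0356). That call ended with median-of-ratios scaling (-0.65, adjusted p = 0.0594) and with scaling on the 10 CD8 T cell genes (-0.52, adjusted p = 0.0587). In egressed against spleen cells the log2 fold change was -0.42 (95% interval -0.75 to -0.09, adjusted p = 0.353) and in egressed against tumor-retained cells 0.42 (0.09 to 0.75, adjusted p = 0.171). Per 1000 CPM of the 10 CD8 T cell genes there were 66.5 to 77.8 CPM of Ltb in egressed, 49.2 to 69.5 CPM in tumor-retained and 82.3 to 89.8 CPM in spleen libraries, so the order against spleen held on that scale.

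Lta, the partner of lymphotoxin beta and a secreted ligand of the TNF receptors by itself, had 15.7, 16.6, 54.0 and 40.7 CPM in egressed, 56.2, 41.4, 18.0 and 27.4 CPM in tumor-retained and 17.1, 20.3, 21.5 and 24.9 CPM in spleen libraries. Egressed libraries 1 and 2 were low and 3 and 4 high, tumor-retained libraries 1 and 2 were high and 3 and 4 low, and the groups overlapped. No difference passed (egressed against tumor-retained -0.17 and adjusted p = 0.931, egressed against spleen 0.60 and adjusted p = 1, tumor-retained against spleen 0.77 and adjusted p = 0.537 on the log2 scale, by edgeR).

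Tnfsf14, whose product LIGHT binds HVEM and the lymphotoxin beta receptor, was uneven among Kaede red+ libraries. It had 16.7, 8.15, 1.77 and 38.5 CPM in egressed libraries and 19.5, 0, 7.50 and 24.4 CPM in tumor-retained libraries, against 12.0, 10.7, 8.86 and 9.90 CPM in spleen libraries. The spleen libraries lay close together inside the spread of both other groups, and tumor-retained library 2 had no count, which allows up to 0.109 CPM. Its coefficient of variation was 98.5% in egressed, 86.5% in tumor-retained and 12.7% in spleen cells. No difference passed, and the sign of each depended on which libraries were used.

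Csf1, the macrophage growth factor, had 0.547, 0.417, 12.0 and 0 CPM in egressed libraries, 0, 62.6, 135 and 91.9 CPM in tumor-retained libraries and 1.30, 0.523, 1.68 and 1.64 CPM in spleen libraries. It was high in 3 tumor-retained libraries and without a count in the fourth of them, library 1, which at its depth allows up to 0.0922 CPM. The log2 fold change was 5.81 (95% interval 1.40 to 10.22, adjusted p = 0.154 by edgeR) in tumor-retained against spleen and -4.47 (-8.60 to -0.34, adjusted p = 0.24) in egressed against tumor-retained cells. Without tumor-retained library 1 and egressed libraries 3 and 4, the libraries with the fewest detected genes, these were 6.27 (adjusted p = 0.000204) and -7.71 (adjusted p = 0.00527), and DESeq2 called the comparison of tumor-retained with spleen cells in all libraries (5.99, adjusted p = 0.0156). Without tumor-retained libraries 3 and 4 Csf1 passed in no comparison, at 4.57 (adjusted p = 0.301) in tumor-retained against spleen and -3.25 (adjusted p = 0.433) in egressed against tumor-retained cells. Of the 3 high libraries, 3 and 4 are those with the most macrophage and stromal markers, whereas library 2 had 62.6 CPM of Csf1 with a macrophage marker sum of 40.5 CPM and a stromal marker sum of 131 CPM, both near or within the spleen ranges (29.8 to 98.9 CPM and 142 to 162 CPM). The part of other cell types in the Csf1 level of libraries 3 and 4 was not tested.

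**Figure D3:**
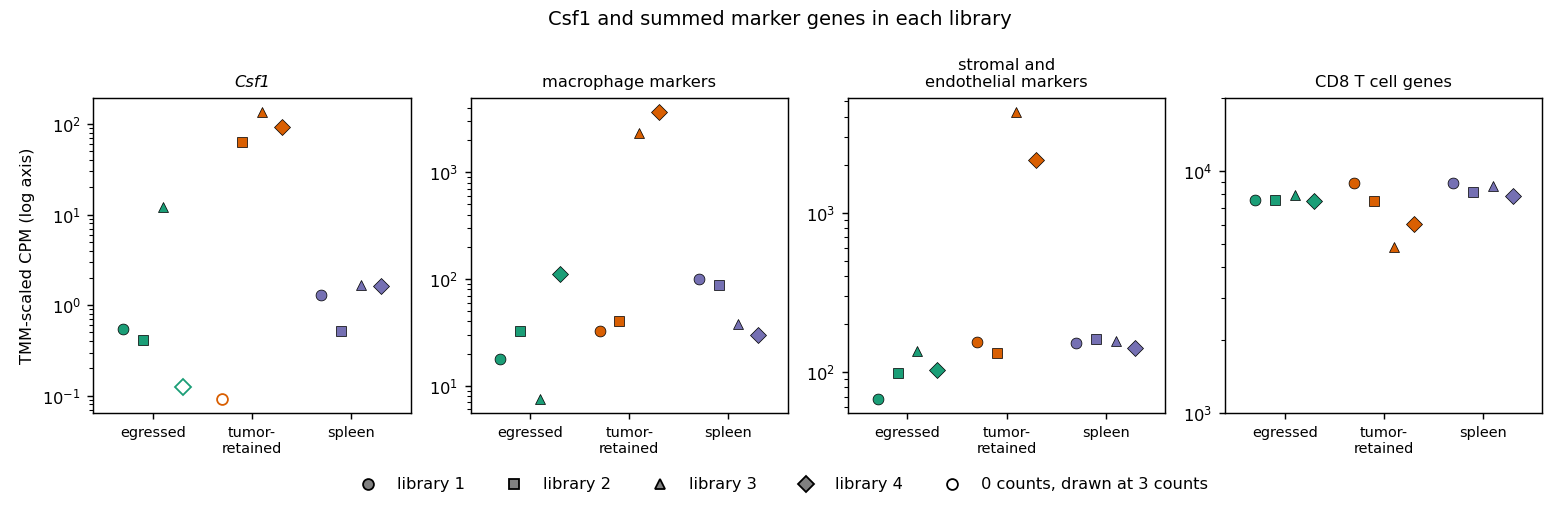
TMM-scaled CPM (log y axis) of Csf1 and of the summed macrophage, stromal and CD8 T cell marker genes in each library of the egressed, tumor-retained and spleen groups, with open symbols for 0 counts, drawn at the level of 3 counts. Tumor-retained libraries 3 and 4 are high for Csf1, macrophage and stromal markers, tumor-retained library 2 is high for Csf1 only, and the sum of CD8 T cell genes stays between 4865 and 8934 CPM.

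Summed over the 10 genes, egressed libraries had 1738, 1847, 1290.4 and 1369 CPM, tumor-retained libraries 2019, 2055, 1189 and 1774 CPM and spleen libraries 1551, 1398, 1167 and 1089 CPM, with overlap between all groups. What differed was the makeup of that sum. Ccl5 and Ltb together made up 74.0% to 79.9% of it in egressed, 39.2% to 69.1% in tumor-retained and 90.0% to 92.6% in spleen libraries. Ccl3, Ccl4 and Ifng together made up 9.87% to 15.0% in egressed, 23.9% to 47.3% in tumor-retained and 2.97% to 3.69% in spleen libraries. In both shares the 3 populations did not overlap and egressed cells lay between the other groups. The genes were put together after their values had been seen, so these shares describe the libraries and carry no test.

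**Figure D4:**
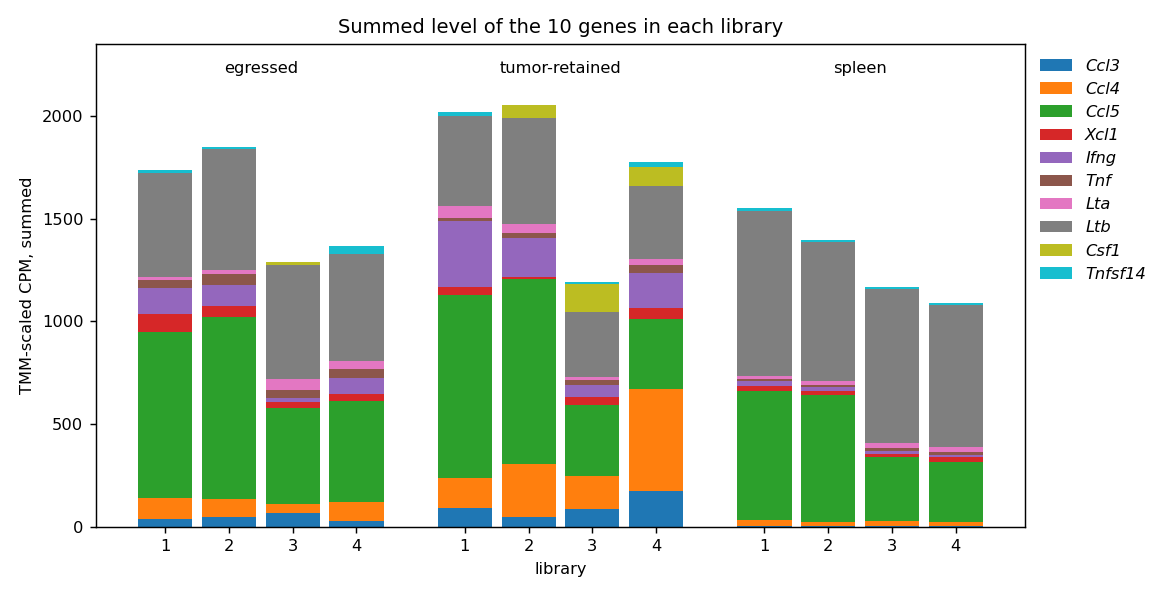
TMM-scaled CPM summed over the 10 genes (y axis, from 0) in each of the 4 egressed, 4 tumor-retained and 4 spleen libraries, with 1 colour per gene. Ccl5 and Ltb fill most of each spleen bar (90.0% to 92.6%), less of each egressed bar (74.0% to 79.9%) and least of each tumor-retained bar (39.2% to 69.1%), where Ccl3, Ccl4 and Ifng take more.

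The genes whose pattern over the 12 libraries was most like each of the 10 were found by the root mean square difference of log2 CPM, each gene centred on its own mean, among 8030 genes with a mean log2 CPM of at least 3. For Ccl3 these were Rgs1 (difference 0.674), Tnfaip3 (0.786) and Bcl2a1d (0.897), where the median over all candidates was 2.14. Rgs1 averaged 329.9 ± 67.4 CPM in egressed, 732 ± 255 CPM in tumor-retained and 34.7 ± 7.16 CPM in spleen cells. Bcl2a1d has near-identical copies in the mouse genome, and its counts are uncertain for that reason. For Ccl4 they were Klrk1 (0.387), Nr4a3 (0.461) and Klrc1 (0.496), with a median of 1.67, and for Ifng they were Rgs2 (0.322), Icos (0.484) and Fosl2 (0.508), with a median of 1.78. Rgs2 followed Ifng into its low egressed library, at 339, 318, 49.4 and 158 CPM in egressed libraries, 688, 365, 220.3 and 382 CPM in tumor-retained and 46.4, 47.6, 55.3 and 38.2 CPM in spleen libraries. For Tnf the nearest were Jun (0.345), Nfkbiz (0.364) and Smpd5 (0.450), with a median of 1.04, so the nearest gene to Tnf differed from those of Ifng and Ccl3. The nearest were Ptger4, Cd48 and Ikzf3 for Ccl5 (0.366 to 0.389), Coq10b, Necap1 and Polr2k for Xcl1 (0.468 to 0.484), Rac2 and Crlf3 for Ltb (0.121 and 0.148), Mta3, Mon1a and Zrsr2 for Lta (0.296 to 0.340), and C2cd2l and Zfp94 for Tnfsf14 (0.855 and 0.912). Csf1 had no near gene: its closest, Plcg2, was 2.31 away. Among the 10 themselves, Xcl1 and Tnf (0.656), Ccl5 and Ltb (0.699) and Ccl4 and Ifng (0.779) were each other's nearest, and Ccl4 was nearest to Ccl3 (0.919). Nearest among the 10 does not mean near, since Ccl5 was farther from Ltb than the median candidate was (0.638). These distances describe 12 libraries that share their groups and their differences in library quality, and they carry no test.

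Receptors of the 10 ligands were read next. Of 11 receptor genes 0 rose and 3 fell in egressed against tumor-retained cells, 1 rose in egressed against spleen cells, and 3 rose in tumor-retained against spleen cells. The median log2 fold change of the 11 was -1.85 in egressed against tumor-retained and 2.11 in tumor-retained against spleen cells. Over all tested genes these medians were 0.00 and -0.15. Leaving out tumor-retained libraries 3 and 4 gave -1.46 and 0.44 for the 11, and 0.22 and -0.45 over all genes. Tnfrsf1b, which encodes the TNF receptor TNFR2, averaged 186 ± 64.6 CPM in egressed, 734 ± 349.6 CPM in tumor-retained and 162 ± 22.8 CPM in spleen cells, and rose in tumor-retained over spleen cells (2.17 ± 0.37, adjusted p = 0.00737 by edgeR, or 0.0654 with limma-voom). Ifngr1, the ligand-binding chain of the interferon gamma receptor, averaged 847 ± 236 CPM in egressed, 2385 ± 1049 CPM in tumor-retained and 553 ± 12.6 CPM in spleen cells, and rose in tumor-retained over spleen cells (2.11 ± 0.30, adjusted p = 0.00259, or 0.134 with limma-voom). Both were also lower in egressed than in tumor-retained cells (adjusted p = 0.0272 for Tnfrsf1b and 0.0356 for Ifngr1). Of the 21 alternatives, 10 ended that call for Tnfrsf1b and 12 ended it for Ifngr1, among them leaving out egressed library 1, 3 or 4, tumor-retained library 4 or any 1 spleen library for Tnfrsf1b (adjusted p up to 0.0692), and any 1 egressed or spleen library or tumor-retained library 2 or 4 for Ifngr1 (up to 0.0717). Csf1r and Ccr1, receptors known from myeloid cells, were highest in the tumor-retained libraries with macrophage markers. In tumor-retained libraries 1 to 4 Csf1r had 2.06, 5.91, 252 and 282 CPM and Ccr1 had 0, 10.8, 134 and 172.6 CPM. Ccr3, of the same list, did not follow them, at 0.0614, 19.4, 4.02 and 2.28 CPM.

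Of 41 other cytokines and TNF family ligands 28 were tested. In egressed against tumor-retained cells 1 rose and 1 fell (median log2 fold change -2.14, beside 0.00 over all genes). In egressed against spleen cells 1 rose and 0 fell (0.64, beside -0.13 over all genes). In tumor-retained against spleen cells 4 rose and 2 fell (2.61, beside -0.15 over all genes). Macrophage, dendritic and stromal cell markers lay the same way. In egressed against tumor-retained and in tumor-retained against spleen cells their medians were -4.41 and 3.09, -2.00 and 2.53, and -6.78 and 6.95. Natural killer, granulocyte and mast, and CD4 and regulatory T cell markers did so too. B cell (1.52 and -1.03) and melanoma markers (0.62 and -1.74) lay the other way. With tumor-retained libraries 3 and 4 left out, macrophage (1.54 and -1.67) and dendritic cell medians (1.38 and -0.83) changed sign. Granulocyte and mast medians did so too (6.17 and -4.65). The natural killer median changed sign in egressed against tumor-retained (0.04) but not in tumor-retained against spleen cells (0.52). The stromal (-1.92 and 1.01) and the CD4 and regulatory T cell medians (-1.44 and 2.5) kept theirs. Without tumor-retained libraries 3 and 4 the medians of the other ligands were -0.14 and 0.61 (0.22 and -0.45 over all genes), and 1 rose and 1 fell in tumor-retained against spleen cells. Fasl, the death ligand of the TNF family, had 117, 32.8, 65.3 and 115 CPM in egressed libraries, 473, 336, 152 and 364 CPM in tumor-retained libraries and 12.0, 22.8, 11.1 and 13.2 CPM in spleen libraries. Its 3 groups did not overlap, in the same order as Ccl4. It rose in tumor-retained over spleen cells (log2 fold change 4.48 ± 0.49 SE, adjusted p = 0.000367 by edgeR) under all 21 alternatives. In egressed over spleen cells it rose as well (2.48 ± 0.44, adjusted p = 0.0392), a call that 12 of 21 alternatives ended, among them leaving out egressed library 1, 3 or 4, tumor-retained library 2 or 4 or any 1 spleen library (adjusted p up to 0.216). Tnfsf9, the ligand of 4-1BB, averaged 0.751 ± 0.531 CPM in egressed, 46.6 ± 19.4 CPM in tumor-retained and 2.62 ± 1.14 CPM in spleen cells (SD, n = 4 each). It was lower in egressed than in tumor-retained cells (-5.95 ± 0.92, adjusted p = 0.0104), a call that 20 of 21 alternatives kept, and higher in tumor-retained than in spleen cells (4.15 ± 0.84, adjusted p = 0.0221). Its call against spleen ended under 7 of 21 alternatives, among them without tumor-retained libraries 3 and 4 (adjusted p = 0.0551), without tumor-retained library 4 alone or without any 1 spleen library (up to 0.106). Tnfsf8, the ligand of CD30, went the other way, at 158 ± 37.3 CPM in egressed, 56.8 ± 18.3 CPM in tumor-retained and 137 ± 29.4 CPM in spleen cells. It was higher in egressed than in tumor-retained cells (1.48 ± 0.28, adjusted p = 0.0294), and 10 of 21 alternatives ended that call, among them leaving out egressed library 1, 3 or 4, tumor-retained library 3 or any 1 spleen library (adjusted p up to 0.0792). Spp1, which encodes osteopontin and is abundant in macrophages, had 14.2, 1.71, 12718 and 2709 CPM in tumor-retained libraries and at most 3.87 CPM in any egressed or spleen library. Its rise over spleen (adjusted p = 0.0285) was lost without tumor-retained libraries 3 and 4 (adjusted p = 0.295), without tumor-retained library 4 alone (0.0519) and without any 1 spleen library (up to 0.124).

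Of 27 genes for transcription factors and their regulators in cytokine transcription 26 were tested, and 1 rose and 1 fell in egressed against tumor-retained, 4 rose and 1 fell in egressed against spleen, and 4 rose and 2 fell in tumor-retained against spleen cells. Fos, a subunit of AP-1, had 928, 1121, 673 and 838 CPM in egressed, 849, 748, 494 and 839 CPM in tumor-retained and 110.3, 113, 166 and 132 CPM in spleen libraries. Both Kaede red+ groups lay above all spleen libraries and overlapped each other. Fos rose over spleen in egressed cells (log2 fold change 2.77 ± 0.22 SE, adjusted p = 0.00057 by edgeR) and in tumor-retained cells (2.49 ± 0.22, adjusted p = 0.000109), each under all 21 alternatives. Bhlhe40, a repressor needed for full cytokine output in T cells, averaged 74.9 ± 35.3 CPM in egressed, 551 ± 219.6 CPM in tumor-retained and 14.0 ± 5.37 CPM in spleen cells. It was lower in egressed than in tumor-retained cells (-2.88 ± 0.42, adjusted p = 0.00921) and rose in tumor-retained over spleen cells (5.29 ± 0.47, adjusted p = 0.000109), again under all 21 alternatives. In egressed over spleen cells Bhlhe40 rose as well (2.41, adjusted p = 0.0333), a call that 10 of 21 alternatives ended. Jun, the partner of FOS, had its highest mean in egressed cells, like Tnf and Xcl1 (1128 ± 242 CPM, against 479.6 ± 196 CPM in tumor-retained and 337.5 ± 49.5 CPM in spleen cells). It rose in egressed over spleen cells (1.74 ± 0.27, adjusted p = 0.0209), a call that 8 of 21 alternatives ended, among them leaving out egressed library 1 or 2 or any 1 spleen library (adjusted p up to 0.137). Against tumor-retained cells it also rose (1.23 ± 0.26, adjusted p = 0.0472), but 14 of 21 alternatives ended that call, leaving out any library other than tumor-retained 4 among them (adjusted p up to 0.113). Nr4a1, an early gene of T cell receptor signalling, rose in tumor-retained over spleen cells (2.82 ± 0.40, adjusted p = 0.00254, or 0.0578 with limma-voom). It also passed as higher in egressed than in spleen cells. Nr4a1 averaged 187 ± 57.0 CPM in egressed, 313 ± 180 CPM in tumor-retained and 44.1 ± 5.17 CPM in spleen cells.

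Genes for message decay and translation were read as a further list. Of 13 tested, 2 fell in egressed against tumor-retained cells, 1 fell in egressed against spleen cells, and 2 rose and 1 fell in tumor-retained against spleen cells. Gapdh, a glycolytic enzyme known to bind cytokine messages in T cells, averaged 668 ± 91.4 CPM in egressed, 1604 ± 371 CPM in tumor-retained and 571 ± 33.7 CPM in spleen cells. It was lower in egressed than in tumor-retained cells (-1.26 ± 0.17, adjusted p = 0.00639 by edgeR) and rose in tumor-retained over spleen cells (1.49 ± 0.17, adjusted p = 0.000503), both under all 21 alternatives. Arid5a, which protects cytokine messages from decay, rose in tumor-retained over spleen cells (1.34 ± 0.22, adjusted p = 0.00692), also under all 21 alternatives. Of 12 genes for the release and processing of ligands, 0 rose and 1 fell in egressed against tumor-retained cells, none passed in egressed against spleen cells, and 2 rose and 1 fell in tumor-retained against spleen cells. Srgn, the proteoglycan of secretory granules, had 393, 332, 281 and 279 CPM in egressed, 1028, 751, 684 and 1109 CPM in tumor-retained and 233, 227, 176 and 192 CPM in spleen libraries, with no overlap between any groups. It was lower in egressed than in tumor-retained cells (-1.47 ± 0.19, adjusted p = 0.00467) and rose in tumor-retained over spleen cells (2.11 ± 0.19, adjusted p = 0.000109) under all 21 alternatives. Stx11, a protein of granule fusion, rose in tumor-retained over spleen cells (2.97 ± 0.45, adjusted p = 0.00388) under all 21 as well.

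Of 24 genes that interferon gamma is known to induce, 0 passed in egressed against tumor-retained cells, 0 in egressed against spleen cells, and 1, Cd274, rose in tumor-retained against spleen cells. Cd274, which encodes PD-L1, averaged 91.8 ± 29.4 CPM in egressed, 149 ± 52.8 CPM in tumor-retained and 55.8 ± 9.12 CPM in spleen cells (tumor-retained over spleen 1.42 ± 0.31, adjusted p = 0.0314 by edgeR). That call ended under 9 of 21 alternatives, among them without tumor-retained libraries 3 and 4 (1.11, adjusted p = 0.188), library 3 (0.0615) or library 4 (0.102), egressed library 1 (0.055) or any 1 spleen library (up to 0.131). The median log2 fold change of the 24 was -0.22 in egressed against tumor-retained, 0.00 in egressed against spleen and 0.41 in tumor-retained against spleen cells, beside 0.00, -0.13 and -0.15 over all tested genes. Without tumor-retained libraries 3 and 4, Gbp2 and Gbp6 passed as higher in tumor-retained than in spleen cells. Gbp2 then also passed as lower in egressed than in tumor-retained cells. The medians in that run were -0.24 in egressed against tumor-retained and 0.36 in tumor-retained against spleen cells (0.22 and -0.45 over all genes).

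**Figure D5:**
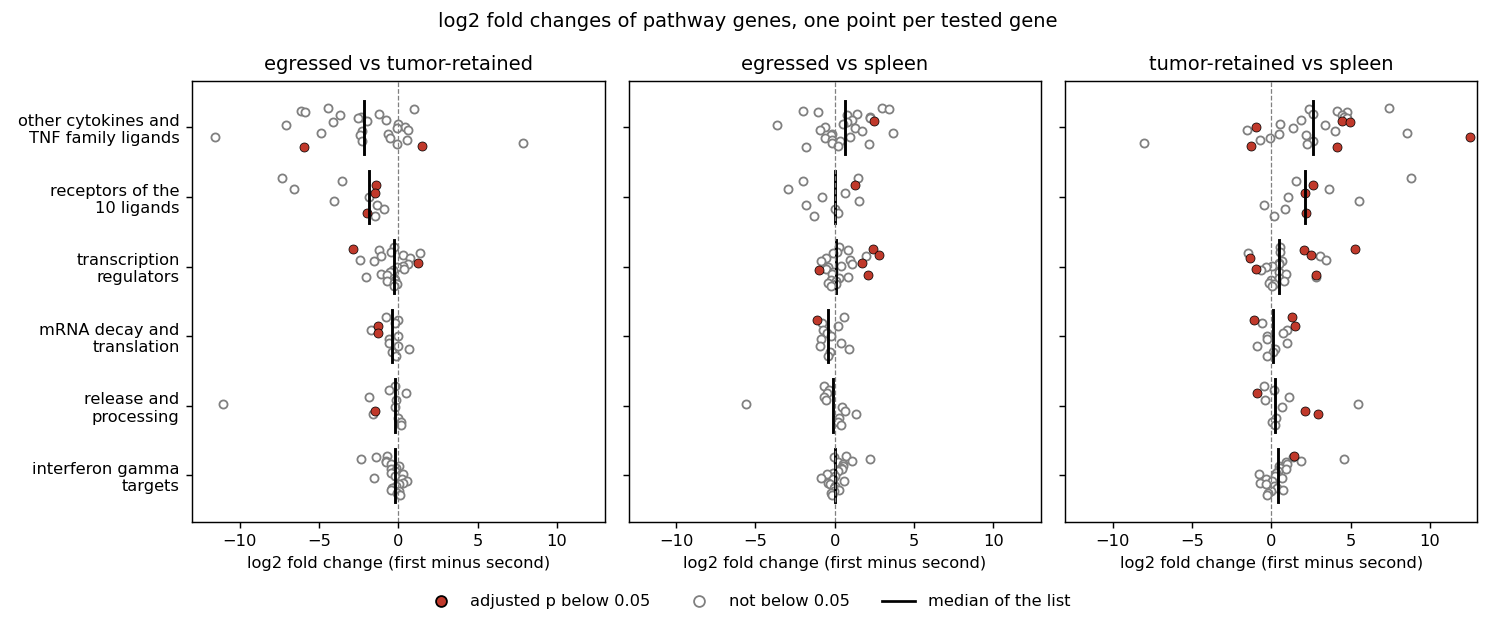
log2 fold change (x axis, first group minus second) of every tested gene of 6 pathway lists, 1 point per gene, in the 3 comparisons, with genes past an adjusted p of 0.05 in red and a black line at the median of each list. In tumor-retained against spleen cells the medians of other ligands (2.61) and of receptors (2.11) lie to the right of 0, and in egressed against tumor-retained cells they lie to the left (-2.14 and -1.85). Without tumor-retained libraries 3 and 4 these medians were 0.61 and 0.44, and -0.14 and -1.46.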

How the data were processed

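RNA was taken up in Takara lysis solution and libraries were made with the SMART-Seq v4 Ultra Low Input kit, per the labels' protocols. The kit adds no molecular identifiers, so a count is a read and not a molecule. Floors of 3 counts cover counting error only, whereas SEs and 95% intervals come from the model and cover the spread between libraries. The authors deposited raw counts per gene symbol and, in a second table, log2 values. The deposited log2 values were the logarithm of each count divided by a size factor plus 1, to within 5e-09, and were not used in tests. Per the submitters' processing notes the build was mm10 and the tools were, in no stated role or order, STAR 2.7.3a, Bowtie2 2.5.1, Cufflinks 2.2.1 and cutadapt 2.5. Which program counted reads, with which annotation and strand setting, is not given in the sources used here.

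Counts were analysed in R 4.3.3 with edgeR 4.0.16: filterByExpr, TMM scaling, 1 quasi-likelihood model of 3 groups with 4 libraries each, and Benjamini-Hochberg adjustment over 21457 genes at 0.05. The procedure was also run on counts simulated from means shared by all groups, without libraries rich in markers of other cells. The outcome of that run is not reported here. The fit left 9 residual degrees of freedom, its common biological coefficient of variation was 1.21, and a prior count of 2 was added for log2 CPM. DESeq2 1.42.0, limma-voom (limma 3.58.1), other scalings, no filter, a replicate block and leaving out libraries were alternatives, and scaling on 10 CD8 T cell genes, and list medians without tumor-retained libraries 3 and 4, were added after seeing the data. The labels name 4 replicate mice but do not tie library numbers to mice. Within each group no 2 libraries were copies (lowest chi-square per degree of freedom 19.7), and libraries of different groups were not compared in this way. A spreadsheet had changed 27 symbols to dates, which are not named.

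The 10 genes and the pathway and marker lists were chosen with earlier results of these data known. The text names all 10 genes, up to 4 genes with the smallest p among those that passed in each pathway list and comparison, and for each of the 10 the 3 nearest genes over the 12 libraries. A few genes that this rule names are not reported here. The receptor genes Csf1r, Ccr1 and Ccr3 were named after their values were seen. Promoter sequences are from RefSeq (GRCm38.p6) and matched 8 of the 10 genes, and gene positions and exon lengths are from GENCODE M21 on mm10.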

Additional observations from a re-analysis of the deposited data

Results flagged for a closer look

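In each of 30 groups of 4 libraries (10 genes in 3 populations) the gap of the highest or lowest library to its neighbour was compared with the range of the group by Dixon's test at its 95% critical value. Chance alone passes about 1 in 20 such groups, and 2 of the 30 passed. Csf1 had 12 CPM in egressed library 3, where the other egressed libraries had 0 to 0.547 CPM. That library had the lowest macrophage marker sum of its group (7.52 CPM, against 17.8 to 112 CPM in the others) and the fewest detected symbols (14927). Ccl4 had 28.8 CPM in spleen library 1, where the other spleen libraries had 20.3 to 21.6 CPM.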

How the results depend on the processing

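Of the 10 genes in 3 comparisons, Ccl3 and Ccl4 in tumor-retained over spleen cells kept their call under all 21 alternatives, and 4 of 10 genes passed there in the main analysis and 3 to 6 under the alternatives. In egressed against tumor-retained cells 0 genes of the 10 passed, and 1 did with median-of-ratios scaling, no filter, DESeq2 or scaling on 10 CD8 T cell genes (Ccl4 in each) and without the 3 libraries with the fewest detected genes (Csf1), and 0 to 1 when 1 library was left out. In egressed against spleen cells 1 passed (Ccl3), but 3 with median-of-ratios scaling, 2 with library size scaling, 5 with DESeq2, 0 with limma-voom, 2 without tumor-retained libraries 3 and 4, 2 without the 3 libraries with the fewest detected genes, and 0 to 3 when 1 library was left out.

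Over all genes 235 passed in egressed against tumor-retained cells, 1919 with DESeq2, 442 without the 3 libraries with the fewest detected genes and 95 to 487 when 1 library was left out. In egressed against spleen cells 79 passed, 41 with no filter, 508 with DESeq2, 209 with limma-voom, 35 with scaling on CD8 T cell genes and 5 to 123 with 1 library left out. In tumor-retained against spleen cells 518 passed, 342 with no filter, 1777 with DESeq2, 1197 with limma-voom, 2347 without the 3 libraries with the fewest detected genes and 223 to 645 with 1 library left out. Scaling moved the split of calls into higher and lower: 42 and 37 in egressed against spleen became 70 and 20 with median-of-ratios scaling, 59 and 22 with library sizes and 29 and 6 with CD8 T cell genes, 219 and 299 in tumor-retained against spleen became 322 and 178 and, with CD8 T cell genes, 367 and 90, and 109 and 126 in egressed against tumor-retained became 150 and 110 with library sizes and 46 and 156 with CD8 T cell genes. The median of all genes shifted on the log2 scale by 0.16 and 0.19 against spleen (egressed, tumor-retained) with median-of-ratios scaling, by 0.13 in egressed against spleen with library sizes, and with CD8 T cell genes by -0.24 in egressed against tumor-retained, 0.13 in egressed against spleen and 0.37 in tumor-retained against spleen cells.

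With the replicate number as a block, 78 genes passed in egressed against tumor-retained (76 of them among the 235), 23 in egressed against spleen and 295 in tumor-retained against spleen cells, and 0, 1 and 4 of the 10. The block also ended the Tnfsf9 call in egressed against tumor-retained cells (adjusted p = 0.0552). Over all tested genes the deviations of same-numbered libraries correlated at -0.124 to 0.117, which cannot tell whether a number marks a mouse. The authors' library names carry the same numbers in every group, with the same number skipped. The block therefore pairs numbers, not known mice.

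Signs turned only for differences that had not passed. In egressed against tumor-retained cells Ccl5 was -0.423 without tumor-retained libraries 3 and 4, -0.0042 with CD8 T cell genes and -0.102 to 0.333 with 1 library left out, Lta was -0.556 to 0.176 and Tnfsf14 -0.646 to 0.847 with 1 left out. In egressed against spleen cells Lta was -0.412 without the 3 libraries with the fewest genes, Csf1 was -1.27 with limma-voom, -0.359 with the block, -1.45 without those 3 libraries and -2 to 1.87 with 1 left out, and Tnfsf14 was -0.195 with limma-voom, -0.043 with the block and -0.233 to 1.01 with 1 left out. In tumor-retained against spleen cells Tnfsf14 was -1.66 with limma-voom, -0.0954 without tumor-retained libraries 3 and 4, -0.377 with the block and -0.212 to 0.714 with 1 left out. The cause was not tested in any of these. With 4 libraries a group, wide spread in the Kaede red+ libraries limits what can be called, and 3 counts per library limit what can be detected.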

Other observations

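Il2 and Csf2, cytokines that activated T cells make in bursts, were low and uneven. Il2 had 11.7, 5.50, 0.164 and 0.623 CPM in egressed, 8.63, 0.181, 8.27 and 2.28 CPM in tumor-retained and 3.47, 2.41, 1.14 and 0.546 CPM in spleen libraries. Csf2, which encodes GM-CSF, had 1.64, 0.759, 0 and 0 CPM in egressed, 22.2, 0, 6.05 and 3.29 CPM in tumor-retained and 0.206, 0.384, 0.445 and 0.364 CPM in spleen libraries. Both were picked after their values were seen. The tumor-retained library with the most Csf2 (library 1) was the one without a count of Csf1, and library 2, with none of Csf2, had 62.6 CPM of Csf1.

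Fgl2, which encodes a secreted fibrinogen-like protein of T cells and macrophages, had 43.0, 18.7, 0.0327 and 12.2 CPM in egressed, 297, 336, 290.1 and 385 CPM in tumor-retained and 10.3, 16.8, 6.89 and 8.66 CPM in spleen libraries. It was high in all 4 tumor-retained libraries, also in libraries 1 and 2 with macrophage marker sums of 32.8 and 40.5 CPM. It was picked after its values were seen, and the part of other cell types in its level was not tested.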
